A study of Homo sapiens with 8 samples.

Results

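The nuclear genes of respiratory complex I (NADH:ubiquinone oxidoreductase) were followed in VHL-deficient and VHL-expressing 786-O cells. The set held all genes whose only annotated symbol starts with NDUF, and each gene was read from the transcript cluster (the set of probes of 1 transcription unit on the array) with the highest mean over 8 arrays. This gave 43 genes of 18417 with a cluster of their own. They were 34 subunits of the enzyme, 7 assembly factors named NDUFAF, NDUFA4, and NDUFA4L2, the last 3 kinds being kept apart from the subunits. NDUFC2 and NDUFS5, which shared a cluster with other symbols, and NDUFAF8 were not analysed here. 786-O is an established cell line from a clear cell renal cell carcinoma (RCC) without functional VHL. Untransfected cells (VHL-) and cells stably carrying a VHL overexpression vector (VHL+, kept as bulk cultures) were kept for 24 h in normal oxygen or in hypoxia (1% O2). Each of the 4 groups had 2 biological replicates, and their total RNA was measured on Human GeneChip 1.0 ST arrays. VHL+ and VHL- cells therefore also differed in having been transfected or not, and effects of VHL and of transfection cannot be told apart.

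Complex I takes electrons from NADH, passes them along a chain of iron-sulphur clusters to ubiquinone and pumps protons across the inner mitochondrial membrane. Its catalytic core is made of nuclear-encoded subunits in the peripheral arm, divided into the N module, which oxidizes NADH, and the Q module, which reduces ubiquinone, and of subunits encoded by mitochondrial DNA in the membrane arm. Accessory subunits surround this core, and assembly factors join the modules without staying in the finished enzyme. VHL is part of a ubiquitin ligase that marks HIFα subunits for degradation, and HIF is known to direct cells from respiration to glycolysis, in part through NDUFA4L2, which lowers complex I activity. NDUFA4, first described as a complex I protein, is now assigned to complex IV. Both are listed in the current annotation under the names COXFA4 and COXFA4L2.

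Of the 43 genes, 40 matched a promoter window in RefSeq (GRCh38.p14), of which the 250 bases before the start were searched on both strands. The core of the HIF-binding element (ACGTG or GCGTG) was found in windows of 28 of these 40 genes (70.0%), compared to 12945 of 27305 genes overall (47.4%). The binding site of NRF1, an activator of nuclear genes for respiration, was found in 5 of 40 (12.5%) and in 6.2% of all genes. The ETS site bound by GABPA (CCGGAAG) was found in 6 of 40 and in 10.2% of all genes. The letters of the HIF core are short, and a match is not a binding site. Shown are the first listed windows of the genes with the largest rises (NDUFA7, NDUFS1) and the largest fall (NDUFA12) with VHL, and of NDUFA4L2, with matches to the 3 motifs in capitals. They are at chr19:8321376-8321625 (NDUFA7), chr2:206159445-206159694 (NDUFS1), chr12:95003698-95003947 (NDUFA12) and chr12:57240763-57241012 (NDUFA4L2), all on the minus strand.
NDUFA7: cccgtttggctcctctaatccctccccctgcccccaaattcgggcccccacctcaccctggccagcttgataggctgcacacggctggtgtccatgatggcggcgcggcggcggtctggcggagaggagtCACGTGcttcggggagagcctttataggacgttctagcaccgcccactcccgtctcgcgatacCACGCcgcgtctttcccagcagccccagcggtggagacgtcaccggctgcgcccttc
NDUFS1: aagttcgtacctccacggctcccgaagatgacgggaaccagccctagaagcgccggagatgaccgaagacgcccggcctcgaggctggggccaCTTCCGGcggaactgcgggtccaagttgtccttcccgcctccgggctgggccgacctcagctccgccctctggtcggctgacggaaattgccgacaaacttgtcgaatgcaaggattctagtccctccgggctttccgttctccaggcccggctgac
NDUFA12: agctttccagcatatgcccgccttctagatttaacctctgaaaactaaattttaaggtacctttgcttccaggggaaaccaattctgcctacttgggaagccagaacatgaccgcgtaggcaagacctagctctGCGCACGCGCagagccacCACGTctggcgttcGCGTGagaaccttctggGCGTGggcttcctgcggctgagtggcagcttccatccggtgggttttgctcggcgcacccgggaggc
NDUFA4L2: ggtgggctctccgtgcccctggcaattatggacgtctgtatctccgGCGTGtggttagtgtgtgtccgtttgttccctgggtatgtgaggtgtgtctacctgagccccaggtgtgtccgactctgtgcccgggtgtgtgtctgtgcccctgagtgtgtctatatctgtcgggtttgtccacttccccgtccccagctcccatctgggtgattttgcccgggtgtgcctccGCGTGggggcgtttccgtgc
In the windows shown, NDUFS1 had an ETS match alone, NDUFA7 had HIF core matches at 2 places (CACGTG, which reads the same on both strands, and CACGC), NDUFA12 had 4 HIF core matches, the first of them within an NRF1 match, and NDUFA4L2 had 2 HIF core matches. NDUFS1 has 2 windows, and the one not shown had 1 HIF core match. Windows with HIF core letters thus included a gene that was higher, a gene that was lower and a gene that did not pass the test with VHL.

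The values are log2 intensities, and changes were compared within a gene only, since different genes have different probes. Where a gene is set beside the array's median, its place also depends on its probes and is a rough guide to its level. VHL itself was higher in VHL+ cells by 0.64 on the log2 scale over all arrays (SE 0.11, adjusted p = 0.000109). All 8 markers of renal tubule and RCC, among them PAX8, KRT8 and VIM, lay above the array's median on all 8 arrays. PTPRC, CD3E, PECAM1, VWF, CDH5, COL1A2, PDGFRA and ALB, markers of leukocytes, endothelium, fibroblasts and liver, were below it on every array, whereas COL1A1 and CD68 were above it. The medians of all 33297 clusters differed between arrays from 6.60 (VHL- under hypoxia, replicate 1) to 6.91 (VHL+ under hypoxia, replicate 1), so that the median of all clusters was 0.16 higher with VHL under hypoxia and 0.04 lower under normoxia. Medians and counts are therefore set beside those of all clusters, and values are also given after quantile normalization where it changed a call or its size. This normalization makes the distributions of the arrays equal. In these bulk samples, fewer cells of a type and less RNA per cell cannot be told apart.

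Complex I genes had bright signals. On all 8 arrays 42 of 43 genes had intensities above the array's median, and the exception was NDUFA4L2. Complex I genes moved in both directions with VHL. Over all arrays, with oxygen as a second factor, 9 of 43 genes were up-regulated and 3 were down-regulated in VHL+ vs. VHL- cells (limma, adjusted p under 0.05). The shares of 20.9% and 6.98% stood beside 10.6% and 3.72% of all clusters, and 42 of the 43 genes belong to the brighter clusters. When dim clusters were left out, 9 genes were higher and 2 lower, beside 18.2% and 5.86% of clusters. The share of complex I genes called was thus near that of other bright clusters. The median log2 fold change of the 34 subunits was 0.13, compared to 0.06 for all clusters, and it was -0.01 after quantile normalization, so its sign depended on the scaling.

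**Figure D1:**
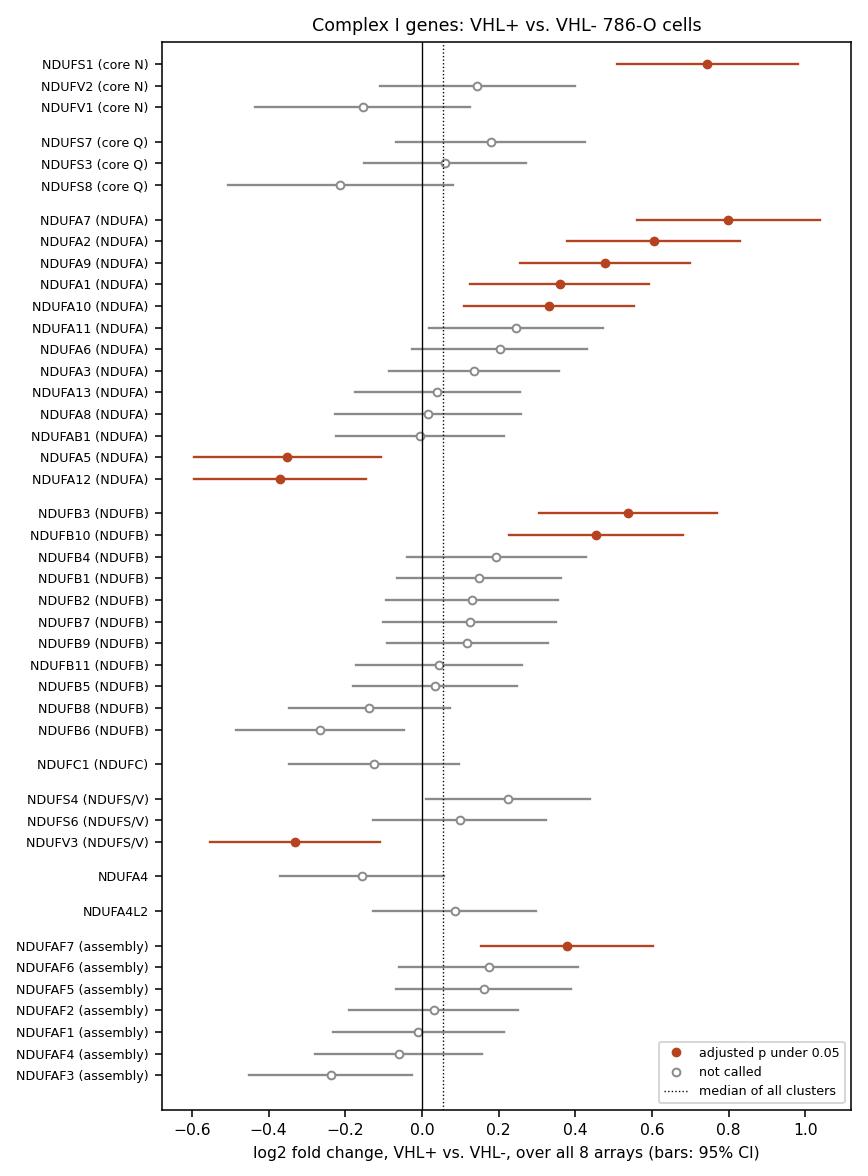
Log2 fold change of each of the 43 genes in VHL+ vs. VHL- cells over all 8 arrays, grouped by role, with 95% confidence intervals as bars. Filled red points passed the test (9 to the right of 0, 3 to the left), open points did not, and the dotted line is the median of all clusters at 0.06.

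Among the catalytic core, NDUFS1 was up-regulated. NDUFS1 is the largest core subunit and carries iron-sulphur clusters of the N module. Its log2 intensities in VHL- cells were 9.45 and 9.61 under normoxia and 9.19 and 9.37 under hypoxia, and those in VHL+ cells were 9.90 and 10.27 under normoxia and 10.25 and 10.18 under hypoxia. All 4 arrays of VHL+ cells were above all 4 of VHL- cells. The log2 fold change was 0.75 (95% CI 0.51 to 0.98, adjusted p = 3.5e-05), a 1.68-fold higher level. The other core subunits measured did not pass. NDUFV1, which binds NADH and flavin mononucleotide, had a log2 fold change of -0.15 (SE 0.14), and its VHL- arrays were themselves spread from 9.43 to 10.16. NDUFV2, an iron-sulphur protein of the N module, had 0.14 (SE 0.12). Of the Q module, NDUFS7 and NDUFS8, which hold the clusters next to ubiquinone, had 0.18 (SE 0.12) and -0.21 (SE 0.14), and NDUFS3 had 0.06 (SE 0.10). NDUFS8 was the least even of them, with 8.82 and 9.29 in VHL- replicates under normoxia and 8.47 and 9.28 under hypoxia.

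Of the 13 accessory subunits of the NDUFA series, 5 were up-regulated and 2 down-regulated, beside the 10.6% and 3.72% of all clusters given above. NDUFA7, a small subunit of the peripheral arm, had the largest rise of all 43 genes. It had 9.42 and 9.70 in normoxic VHL- cells, 9.17 and 9.57 under hypoxia, 10.22 and 10.14 in normoxic VHL+ cells and 10.27 and 10.41 under hypoxia. The groups did not overlap, and the log2 fold change was 0.80 (95% CI 0.56 to 1.04, adjusted p = 1.58e-05). NDUFA2, an accessory subunit of the N module with a thioredoxin-like fold, had 8.94 and 8.97 in normoxic VHL- cells and 8.97 and 8.83 under hypoxia, and 9.53, 9.27, 9.77 and 9.55 on the arrays of VHL+ cells in the same order. Its 4 VHL- arrays lay within a narrow range below all VHL+ arrays (log2 fold change 0.60, SE 0.11, adjusted p = 0.000262). NDUFA9, which lies near the quinone-binding site, had 9.72 to 9.98 in VHL- cells and 10.13 to 10.45 in VHL+ cells (log2 fold change 0.48, SE 0.11, adjusted p = 0.00248). NDUFA1 and NDUFA10, both subunits of the membrane arm, rose by less, by 0.36 (SE 0.11, adjusted p = 0.0322) and 0.33 (SE 0.11, adjusted p = 0.0365). After quantile normalization these were 0.21 (adjusted p = 0.112) and 0.19 (adjusted p = 0.0216). For NDUFA1 the gap between VHL- and VHL+ arrays was small, the highest VHL- value being 9.31 and the lowest VHL+ value 9.32.

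In the opposite direction, NDUFA12, NDUFA5 and NDUFV3 were down-regulated, all 3 being accessory subunits of the peripheral arm. NDUFA12, the subunit whose place the assembly factor NDUFAF2 holds during assembly, had 10.51 and 10.87 in normoxic VHL- cells, 10.52 and 10.74 under hypoxia, 10.21 and 10.32 in normoxic VHL+ cells and 10.37 and 10.26 under hypoxia. The VHL+ arrays were all below the VHL- arrays (log2 fold change -0.37, 95% CI -0.60 to -0.15, adjusted p = 0.0198). NDUFV3, a small subunit bound to the NADH-oxidizing part, had 8.38, 8.68, 8.37 and 8.54 on the VHL- arrays and 8.12, 8.10, 8.30 and 8.12 on the VHL+ arrays, again without overlap (log2 fold change -0.33, SE 0.11, adjusted p = 0.0371). NDUFA5, a subunit at the Q module, changed by -0.35 (SE 0.12, adjusted p = 0.0459), and here the groups overlapped, with 7.39 to 7.65 in VHL- and 6.96 to 7.47 in VHL+ cells.

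Of the 11 NDUFB subunits, which belong to the membrane arm, NDUFB3 and NDUFB10 were up-regulated, beside 10.6% of all clusters. NDUFB3 had 7.62 and 7.61 in normoxic VHL- cells and 7.54 and 7.57 under hypoxia, but 7.79 and 8.15 in normoxic VHL+ cells and 8.39 and 8.16 under hypoxia. VHL- arrays differed from each other by less than 0.1, whereas VHL+ arrays were higher and more spread (log2 fold change 0.54, SE 0.11, adjusted p = 0.00123). NDUFB10, a subunit on the side of the intermembrane space, had 8.73 to 9.13 in VHL- cells and 9.28 to 9.56 in VHL+ cells (log2 fold change 0.45, SE 0.11, adjusted p = 0.0048), and 0.30 (adjusted p = 0.0589) after quantile normalization. NDUFB8, often used as a protein marker of assembled complex I, did not pass (log2 fold change -0.14, SE 0.10), although quantile normalization gave an adjusted p of 0.00479 (-0.28). The 15 other subunits (NDUFA3, NDUFA6, NDUFA8, NDUFA13, NDUFAB1, NDUFB1, NDUFB2, NDUFB5, NDUFB6, NDUFB7, NDUFB9, NDUFB11, NDUFC1, NDUFS4 and NDUFS6) had log2 fold changes from -0.26 to 0.22.

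**Figure D2:**
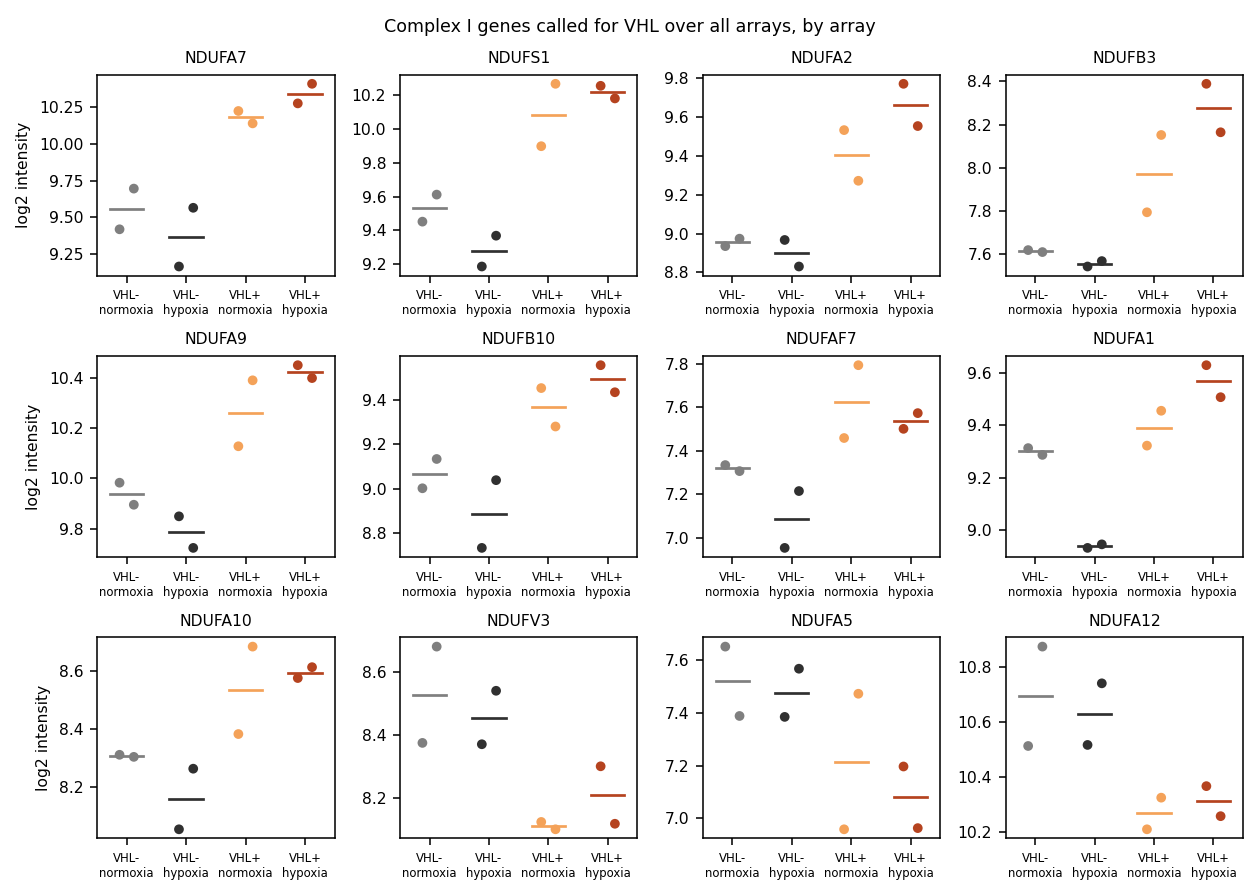
Log2 intensity on each of the 8 arrays (points) and group mean (lines, n = 2) of the 12 genes that passed the test for VHL over all arrays, each panel with its own scale. VHL+ points lie above all VHL- points in the first 9 panels (NDUFA7 to NDUFA10) and below them in NDUFV3 and NDUFA12, while NDUFA5 overlaps.

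Not all 12 calls were equally firm. NDUFS1, NDUFA2, NDUFA7, NDUFA9 and NDUFB3 passed in all 14 alternatives run with adjusted p values for this comparison. NDUFB10 passed in 12, NDUFAF7 in 10, NDUFA12 and NDUFV3 in 9, NDUFA5 in 8, and NDUFA1 and NDUFA10 in 7 of them. At an unadjusted p under 0.005 NDUFA5 was lost and the other 11 genes were kept. For fits with an array left out, shares of all clusters called are not given. The number of genes called dropped from 12 to 6 without either replicate of hypoxic VHL+ cells, and to 7 without replicate 2 of hypoxic VHL- cells or replicate 2 of normoxic VHL+ cells. After quantile normalization 7 genes were higher and 7 lower, beside 8.4% and 7.6% of all clusters, with 10 of the 12 genes kept, NDUFA1 and NDUFB10 lost, and NDUFB6, NDUFB8, NDUFA4 and NDUFAF3 gained as lower. By the plain order of the values, 10 of 43 genes had all VHL+ arrays above all VHL- arrays, beside 10.1% of all clusters, and 3 had them all below, beside 3.34%.

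Most assembly factors did not pass the test. NDUFAF7, a mitochondrial methyltransferase, was the exception. Its values were 7.33 and 7.31 in normoxic VHL- cells, 6.95 and 7.22 under hypoxia, 7.46 and 7.79 in normoxic VHL+ cells and 7.50 and 7.57 under hypoxia. VHL+ arrays were all above VHL- arrays (log2 fold change 0.38, SE 0.11, adjusted p = 0.0167). NDUFAF3, which assembles the Q module together with NDUFAF4, had 9.34, 9.22, 9.21 and 9.40 on the VHL- arrays and 9.06, 8.90, 9.17 and 9.08 on the VHL+ arrays. Although these did not overlap, the log2 fold change of -0.24 (SE 0.10) had an adjusted p of 0.15, and of 0.0236 after quantile normalization. NDUFAF4 had -0.06 (SE 0.11), NDUFAF1, a factor of the membrane arm, -0.01 (SE 0.11), and NDUFAF2 0.03 (SE 0.11). NDUFAF5, a hydroxylase acting on NDUFS7, had 0.16 (SE 0.11), and NDUFAF6 had 0.17 (SE 0.11).

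Assembly factors with other symbols gave 5 up-regulated of 12 and none down-regulated, beside 10.6% and 3.72% of all clusters. AIFM1, needed for mitochondrial import of complex I proteins, had 0.51 (SE 0.10, adjusted p = 0.00087), and TMEM126B, a factor of the membrane arm, had 0.51 (SE 0.12, adjusted p = 0.00457). ACAD9, which forms an assembly complex with NDUFAF1, had 0.43 (SE 0.11, adjusted p = 0.00637) and ranged from 9.70 to 9.89 in VHL- and from 9.96 to 10.39 in VHL+ cells. FOXRED1 had 0.42 (SE 0.12) and TMEM186 had 0.36 (SE 0.11). The list's median was 0.16. After quantile normalization 3 were higher and 2 lower, beside 8.4% and 7.6% of all clusters, with a median of 0.03, and TMEM126B and FOXRED1 were no longer called (adjusted p = 0.0828 and 0.15).

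The effect of VHL was then compared between oxygen conditions. Under normoxia, NDUFA7 (log2 fold change 0.62, SE 0.15, adjusted p = 0.023) and NDUFS1 (0.55, SE 0.15, adjusted p = 0.0391) were up-regulated in VHL+ vs. VHL- cells. No gene was down-regulated, and 2.07% of all clusters were higher and 2.69% lower. Under hypoxia, 9 genes were higher and none lower, a share of 20.9%, beside 10.3% of all clusters higher and 1.31% lower. When dim clusters were left out the 9 calls stood beside 16.1% of clusters higher and 1.94% lower. The 9 genes were NDUFA7 with a log2 fold change of 0.98 (SE 0.15), NDUFS1 with 0.94 (SE 0.15), NDUFA2 with 0.76, NDUFB3 with 0.72, NDUFA9 with 0.64, NDUFA1 with 0.63, NDUFB10 with 0.61, NDUFA11, a membrane arm subunit, with 0.49, and NDUFB4, likewise of the membrane arm, with 0.45. Their adjusted p ran from 0.000488 for NDUFA7 to 0.0367 for NDUFB4. After quantile normalization the 9 log2 fold changes were smaller, 0.69 for NDUFA7, 0.66 for NDUFS1, 0.50 for NDUFA2, 0.46 for NDUFB3, 0.36 for NDUFA9 and NDUFA1, 0.34 for NDUFB10, 0.23 for NDUFA11 and 0.18 for NDUFB4. NDUFS1 and NDUFA7 were called in both conditions. By sign, 18 of 43 genes were higher and 9 lower in both conditions, and 16 had opposite signs.

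**Figure D3:**
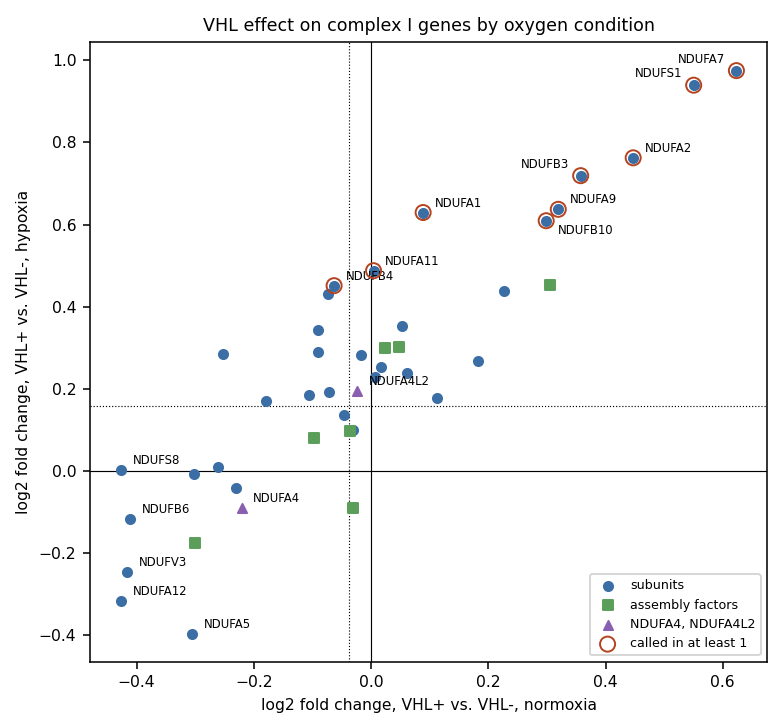
Log2 fold change of VHL+ vs. VHL- cells under normoxia (horizontal) and under hypoxia (vertical) for the 43 genes, with calls ringed and dotted lines at the medians of all clusters (-0.04 and 0.16). NDUFA7 and NDUFS1 lie at the upper right, and NDUFA12, NDUFA5 and NDUFV3 are below 0 on both axes.

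The counts within 1 oxygen condition rested on few arrays, and shares of all clusters called with an array left out are not given. Under hypoxia no gene passed without replicate 1 of hypoxic VHL+ cells, and 2 (NDUFA1 and NDUFA2) passed without replicate 2. The median of the subunits under hypoxia was 0.26 as deposited, beside 0.16 for all clusters, and 0.00 after quantile normalization, when 3 genes (NDUFS1, NDUFA7 and NDUFB3) were higher and 3 (NDUFA12, NDUFB8 and NDUFV3) were lower, beside 2.76% and 2.74% of all clusters. Under normoxia no gene passed without either array of hypoxic VHL+ cells, and 1 passed without any 1 array of the groups compared, which was NDUFS8 without replicate 1 of normoxic VHL- cells. After quantile normalization NDUFS1 alone passed, beside 2.7% of all clusters higher and 2.72% lower, and with dim clusters left out no gene passed, beside 2.7% higher and 3.54% lower.

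Hypoxia for 24 h called no complex I gene. In VHL- cells, limma called 0 of 43 genes, beside 0.021% of all clusters called higher and 0.045% lower. At an unadjusted p under 0.05 there were 2 genes, beside 1765 of 33297 clusters. The 2 genes were NDUFA1 (log2 fold change -0.36, SE 0.13, adjusted p = 0.702) and NDUFB4 (-0.33, SE 0.14, adjusted p = 0.806). NDUFA1 had 9.31 and 9.29 under normoxia and 8.93 and 8.95 under hypoxia. These values did not overlap, and NDUFA1 was the gene with a p under 0.005 by a one-way test on the 2 groups, beside 253 of 33297 clusters. After adjustment this test called none. In VHL+ cells limma called 0 genes, beside 0.15% of all clusters called higher and 0.003% lower. At an unadjusted p under 0.05 there was 1, NDUFA8 (0.37, SE 0.14, adjusted p = 0.652), beside 2052 of 33297 clusters. The one-way test gave 3 genes with a p under 0.05 in VHL- and 2 in VHL+ cells. Clusters at that threshold were not counted for the one-way test. Over all arrays limma called 0 genes, beside 0.111% of clusters higher and 0.0601% lower. None of the 43 genes had an unadjusted p under 0.05, beside 1649 of 33297 clusters. Half-widths of the 95% intervals of the subunits over all arrays were between 0.209 and 0.293. Within VHL- cells or within VHL+ cells they were wider, between 0.275 and 0.43. These widths match an unadjusted p of 0.05, and a call after adjustment needed a larger change. The 0 calls therefore do not exclude changes of these sizes.

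The subunits as a group shifted with the arrays. In VHL- cells 33 of 34 subunits were lower under hypoxia, with a median log2 fold change of -0.15, and in VHL+ cells 33 of 34 were higher, with a median of 0.16. The median of all clusters moved the same way, by -0.12 in VHL- and 0.09 in VHL+ cells. After quantile normalization 20 of 34 subunits were lower in VHL- cells, with a median of -0.05, and 18 of 34 were lower in VHL+ cells, with a median of -0.01. The median intensity of the subunits was 8.97 and 9.18 in normoxic VHL- cells, 8.83 and 8.99 under hypoxia, 9.20 and 9.07 in normoxic VHL+ cells and 9.48 and 9.34 under hypoxia. The highest of these, as of the medians of all clusters, was that of replicate 1 of hypoxic VHL+ cells.

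**Figure D4:**
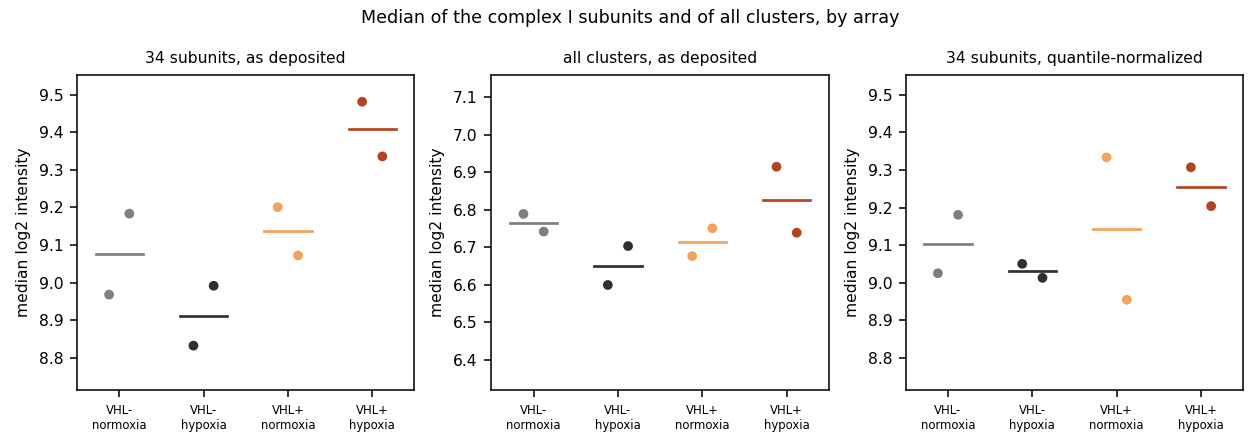
Median log2 intensity of the 34 subunits as deposited, of all clusters as deposited, and of the subunits after quantile normalization, for each array (points) with group means (lines, n = 2). By group mean, hypoxic VHL- cells are lowest and hypoxic VHL+ cells highest in the left panel, and after quantile normalization the VHL+ arrays under normoxia span the range of the others.

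The difference between the VHL effects under hypoxia and under normoxia was tested as an interaction. By limma 0 of 43 genes passed, beside 0.00601% of all clusters called higher and 0% lower. At an unadjusted p under 0.05 there were 6 genes, beside 1869 of 33297 clusters, and 0 genes after quantile normalization. The 6 genes were NDUFA1 (0.54), NDUFA8 (0.54), NDUFB4 (0.51), NDUFS7 (0.50), NDUFA11 (0.48) and NDUFB7 (0.43), each with an adjusted p of 0.651. NDUFA11, for example, had 8.06 and 8.17 in normoxic VHL- cells, 7.84 and 7.92 under hypoxia, 8.10 and 8.14 in normoxic VHL+ cells and 8.39 and 8.34 under hypoxia. Although NDUFA11 was called for VHL under hypoxia alone, a difference between conditions was not shown. Half-widths of the 95% intervals of the subunits for the interaction were between 0.389 and 0.608, so differences of this size are not excluded.

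NDUFA4L2 lay at the median of its arrays. It had 6.72 and 6.66 in normoxic VHL- cells, 6.57 and 6.66 under hypoxia, 6.60 and 6.74 in normoxic VHL+ cells and 6.89 and 6.74 under hypoxia. Every value was below the median of its own array, by 0.08 to 0.00. These values were not tested against background, so they cannot show whether NDUFA4L2 mRNA changed. The log2 fold change with VHL was 0.09 (95% CI -0.13 to 0.30) over all arrays, -0.02 (SE 0.13) under normoxia and 0.19 (SE 0.13) under hypoxia, with adjusted p between 0.408 and 1. Its pattern over the 8 arrays was most like that of ST8SIA3 (Pearson's r 0.991), ITGAL and ADRA2B (0.985), SLA2 (0.984) and ZNF143 (0.983), and its r with the arrays' medians was 0.953. These correlations share the 8 arrays and describe likeness only.

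NDUFA4 lay 0.84 to 1.24 above the median of its arrays. It had 7.87 and 7.72 in normoxic VHL- cells, 7.82 and 7.95 under hypoxia, 7.51 and 7.64 in normoxic VHL+ cells and 7.88 and 7.70 under hypoxia. The groups overlapped, and the log2 fold change of -0.16 (SE 0.10) had an adjusted p of 0.47, which was 0.0119 after quantile normalization (-0.27). COXFA4L3, a paralogue of NDUFA4 known as a replacement for it in complex IV, is not named NDUF and was chosen after its values were seen. It had 8.79 and 8.86 in normoxic VHL- cells and 9.03 and 8.66 under hypoxia, but 5.93 and 6.17 in normoxic VHL+ cells and 6.52 and 6.01 under hypoxia. VHL+ cells were thus below the median of every array, whereas VHL- cells were 1.95 to 2.43 above it. The log2 fold change was -2.68 (SE 0.12, adjusted p = 7.87e-15), and -2.77 (adjusted p = 2.04e-05) after quantile normalization. Whether the low values were above background was not tested.

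**Figure D5:**
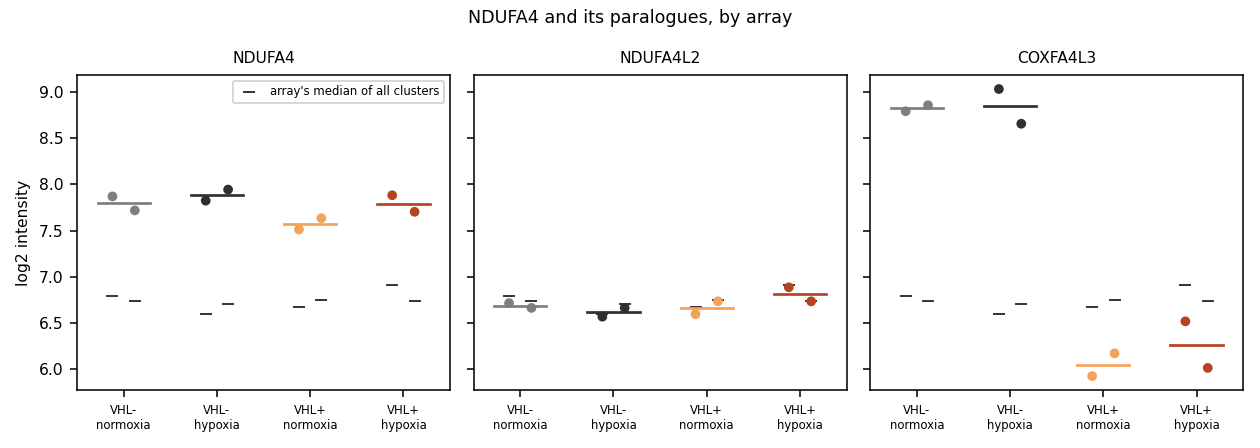
Log2 intensity of NDUFA4, NDUFA4L2 and COXFA4L3 on each array (points) with group means (lines, n = 2) and the median of all clusters of the same array (short black bars). NDUFA4L2 sits on the array medians, and COXFA4L3 has 8.66 to 9.03 in VHL- cells and 5.93 to 6.52 in VHL+ cells.

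Of the other lists of the pathway, complex II (succinate dehydrogenase and its assembly factors) had 1 of 6 measured genes up-regulated over all arrays, beside 10.6% of all clusters. It was SDHD, a membrane anchor (0.44, SE 0.12, adjusted p = 0.0151, and 0.238 after quantile normalization). Of 12 genes of iron-sulphur cluster supply, 2 were up-regulated, beside the same 10.6%, or 18.2% with dim clusters left out. NFS1, the cysteine desulphurase, had 0.43 (SE 0.11, adjusted p = 0.0102), and ISCA1, a late-acting factor, had 0.48 (SE 0.13, adjusted p = 0.0134, and 0.0835 after quantile normalization). FDX2, the ferredoxin of this pathway, passed under hypoxia (0.52, SE 0.14, adjusted p = 0.0169) but not over all arrays (adjusted p = 0.0527). No gene of the list was lower over all arrays as deposited, beside 3.72% of all clusters. After quantile normalization 3 were higher and 2 lower, beside 8.4% and 7.6%.

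Among 11 regulators of mitochondrial biogenesis, 2 were up-regulated and 1 was down-regulated, beside the same 10.6% and 3.72% of all clusters. PPARGC1A, which encodes the coactivator PGC-1α, had 6.21 and 6.46 in normoxic VHL- cells, 6.19 and 6.45 under hypoxia, 6.98 and 7.28 in normoxic VHL+ cells and 6.64 and 7.02 under hypoxia. In VHL- cells it was below the median of all 4 arrays, and the groups did not overlap (log2 fold change 0.65, SE 0.12, adjusted p = 0.000269). Whether its lowest values were above background was not tested. GABPA, the factor of the ETS site above, had 0.40 (SE 0.12, adjusted p = 0.025), and 0.111 was its adjusted p after quantile normalization. TFB1M, a mitochondrial rRNA methyltransferase, was lower, with 8.07, 7.97, 8.24 and 8.21 on the VHL- arrays and 7.51, 7.67, 7.92 and 7.75 on the VHL+ arrays (log2 fold change -0.41, SE 0.10, adjusted p = 0.0058).

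In the list of HIF-linked regulators of respiration, 1 of 10 genes was higher and 3 were lower, beside 10.6% and 3.72% of all clusters. The gene that was higher was VHL, which the vector carried. BNIP3, a mitophagy receptor, had -0.59 (SE 0.14, adjusted p = 0.00431), EPAS1, which encodes HIF2α, had -0.56 (SE 0.13, adjusted p = 0.00322), and HIF1A had -1.98 (SE 0.10, adjusted p = 1.64e-13). After quantile normalization 1 gene of this list was higher and 4 were lower, beside 8.4% and 7.6% of all clusters. No gene of these 5 pathway lists passed for hypoxia or the interaction. In limma, 0 to 2 genes of a list had an unadjusted p under 0.05, beside 1649 to 2052 of 33297 clusters. The mitochondrially encoded subunits (MT-ND genes) were not analysed here.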

How the data were processed

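RNA of 8 samples of 786-O cells (2 replicates in each of 4 groups) had been amplified and hybridized to Human GeneChip 1.0 ST arrays. Log2 intensities as deposited by the authors came from Partek software (version not given in the sources used here) after RMA (Robust Multichip Average), 1 value per transcript cluster, from 4.81 to 14.0. No filter on low values was applied. An item withheld from the text is not reported here. Genes were named from the array annotation (19460 clusters with 1 symbol, 1754 with several, 12083 without). For 4 genes with 2 clusters the brighter was used. NDUFB4 had 2 clusters of identical values. For NDUFS4 and NDUFAF2 the dimmer cluster had the opposite sign for VHL over all arrays.

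All 33297 clusters were tested with limma 3.58.1 in R 4.3.3, either with a mean for each group (4 residual, 14 prior degrees of freedom) or, for effects over all arrays, with VHL and oxygen as factors (5 and 20.7). P values had a Benjamini-Hochberg adjustment across all clusters, and the threshold was 0.05. The fits were tested on simulated data. Brighter clusters are the 16649 at or above the median of the clusters' means. The one-way test named in the methods was applied here to the 2 groups compared (p under 0.005), and the groups entered by the authors may differ. Genes named were NDUFA4 and NDUFA4L2, core subunits, NDUFAF genes, genes called in any comparison, those in the study's tables, the 3 largest rises and falls with VHL, and called genes of pathway lists. The members and lists were chosen with earlier results of these data known. Alternatives were quantile normalization, median centring, dim clusters left out, means of clusters, a trended robust prior, the replicate block, an unadjusted threshold, compared groups alone, the one-way test, and each array left out. Promoters were read with Python 3.11.15. Replicates correlated at 0.991 to 0.994. The number of arrays limits the precision. The labels call the samples biological replicates without describing separate cultures, so p values measure the spread between these samples, which may be technical.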

Additional observations from a re-analysis of the deposited data

How the results depend on the processing

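The number of complex I genes called depended on the scaling, the test and the arrays included. With quantile normalization, 1 gene was called for VHL under normoxia, and the median of the subunits was 0.00 (0.0033) for VHL under hypoxia, -0.01 (-0.0060) for hypoxia in VHL+ cells, 0.0408 for the interaction and -0.01 (-0.0128) for VHL over all arrays. With median centring, 1 gene was called for VHL under normoxia, 4 under hypoxia and 16 over all arrays (NDUFB6, NDUFB8, NDUFA4 and NDUFAF3 added as lower), and the medians were 0.08 (0.0849) for VHL under hypoxia and 0.07 (0.0699) for the interaction. For VHL under normoxia, 0 genes were called with dim clusters left out, with the compared groups alone and by the one-way test on the 2 groups, adjusted or not. With a trended robust prior 9 genes were called over all arrays. The one-way test, which after adjustment called 1 of all clusters for VHL in either oxygen condition, called 0 for VHL under hypoxia, adjusted or not, and 1 at an unadjusted p under 0.005 for hypoxia in VHL- cells. Shares of all clusters called are not given for median centring, the trended robust prior, the compared groups alone, the replicate block or an array left out. Counts at these settings therefore do not tell whether complex I genes differed from other clusters. With fewer clusters or arrays the adjustment and the spread differ by construction, and other causes were not tested.

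Leaving out each array in turn, the calls ranged from 0 to 2 for VHL under normoxia, from 0 to 12 under hypoxia and from 6 to 11 over all arrays, and stayed at 0 for hypoxia in either cell type, for hypoxia over all arrays and for the interaction. The medians of the subunits ranged from -0.0814 to 0.0191 for VHL under normoxia, from 0.1933 to 0.3496 under hypoxia, from 0.0511 to 0.1694 over all arrays, from -0.2068 to -0.0464 for hypoxia in VHL- cells, from 0.1187 to 0.1980 in VHL+ cells, from -0.0435 to 0.0624 over all arrays and from 0.2142 to 0.3581 for the interaction. For VHL under hypoxia, NDUFB8 (-0.0425) turned to 0.0004 without replicate 2 of hypoxic VHL- cells, the range over arrays left out being -0.0853 to 0.0004.

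With the replicate number as a block, 2 genes were called for VHL under normoxia, 12 under hypoxia (NDUFS7, NDUFA10 and NDUFAF7 added) and 12 over all arrays, with 0 for the other comparisons. The labels give no pairing beyond the number. The correlation of replicate 2 minus replicate 1 was 0.605 between normoxic and hypoxic VHL- cells. Between the other pairs of groups it ran from 0.0503 to 0.305. VHL- arrays with the same replicate number thus shared part of their deviation across oxygen conditions. The fit over all arrays and the order of the values treat these arrays as independent. A block common to VHL- and VHL+ cells does not model a component of VHL- cells alone.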
